A study of Mus musculus with 4 samples.

Results

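The miRNA names that mark red blood cells were followed in the RISC of mouse brain. They were mmu-miR-451a, mmu-miR-144-3p, mmu-miR-144-5p and the joined name of mmu-miR-486a-5p and mmu-miR-486b-5p, whose reads cannot be told apart and are called miR-486-5p here. The members were chosen by name, and rows that carry the joined name were counted once. They held 209 of the 85704 deposited sequences, with 97 for mmu-miR-451a, 47 for mmu-miR-144-3p, 13 for mmu-miR-144-5p and 52 for miR-486-5p, and 4 of the 1029 miRNA names. RISC-bound small RNAs (R-sRNAs) had been isolated by Ago-RP-Seq, in which a peptide derived from GW182 pulls down the argonaute (Ago) proteins and the small RNAs loaded into them are sequenced. The tissue was cortex and hippocampus, combined and frozen, of BL6 (C57BL/6J) mice, male per the study's methods, at an age of 2 months (2 libraries) or 18 months (2 libraries). Both ages were of the same strain, and the labels name no transgene or agent for either. How many animals went into a library is not stated, and the methods do not say that blood was flushed from the brains sequenced here. The 2-month libraries are also called young and the 18-month libraries old, and paired values are in the order replicate 1, replicate 2. The libraries held 9067007 to 11388999 reads. Levels are given in CPM, the reads of a miRNA scaled to the same total in each library.

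Red blood cells of mammals lose their nucleus but keep miRNAs, and mmu-miR-451a is known as one of the most abundant of them. mmu-miR-451a and mmu-miR-144 are cut from 1 transcript that the erythroid factor GATA1 drives. mmu-miR-451a is made without Dicer: its short hairpin is loaded into Ago2, sliced there, and then trimmed at the 3' end. mmu-miR-144 takes the usual route through Dicer, with mmu-miR-144-3p as the guide arm and mmu-miR-144-5p as the passenger arm. miR-486-5p is made from an intron of Ank1, the gene of the red cell ankyrin, and is also known from skeletal and heart muscle. In brain tissue these miRNAs are used as a measure of blood left in the vessels.

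In the RefSeq annotation of GRCm38.p6, the hairpins Mir144 (chr11:78073005-78073070, plus strand) and Mir451a (chr11:78073170-78073241, plus strand) lie 99 bases apart. No protein-coding gene of the GENCODE annotation overlapped either, and the nearest genes looked up were Flot2 and Eral1. Mir451b overlaps Mir451a on the minus strand. Mir486 (chr8:23142555-23142682, plus strand) lies inside Ank1 and overlapped none of its exons, and Mir3107, the gene of mmu-miR-486b, covers part of the same bases on the minus strand. The RefSeq sequences used here held 3 of the 5 arms, those of mmu-miR-451a and mmu-miR-144. Their mature sequences are shown with the seed (positions 2 to 8) in capitals, because the seed sets which mRNAs a miRNA can bind:
mmu-miR-451a: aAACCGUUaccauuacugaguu
mmu-miR-144-3p: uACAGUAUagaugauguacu
mmu-miR-144-5p: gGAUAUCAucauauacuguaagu
The Mir451a hairpin is shown with the mature sequence in capitals, because reads that pass its 3' end can be read on in the hairpin:
Mir451a: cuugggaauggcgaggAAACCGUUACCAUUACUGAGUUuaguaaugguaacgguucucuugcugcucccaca
For miR-486-5p the most abundant deposited read is shown, with positions 2 to 8 in capitals:
miR-486-5p: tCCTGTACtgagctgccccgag
No seed is shared among the members.

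mmu-miR-451a was the most abundant member by its mean, at 878 and 1810 CPM in replicates 1 and 2 of 2 months and at 1344 and 1684 CPM at 18 months. The means were 1344 ± 659 CPM at 2 months and 1514 ± 240.1 CPM at 18 months (SD, n = 2 at each age here and throughout). Both 18-month libraries lay between the 2-month libraries. In replicate 1 of 2 months mmu-miR-144-3p was above it. mmu-miR-144-3p stood at 919 and 1564 CPM in the young pair of libraries and 354 and 1134 CPM in the old pair, with means of 1242 ± 456 and 744 ± 552 CPM. Replicate 1 of 18 months was the low one, and replicate 2 of 18 months lay between the 2-month libraries. mmu-miR-144-5p, the passenger arm, was at 7.44 and 7.99 CPM in the young pair of libraries and 5.11 and 8.71 CPM in the old pair. It rested on 54 to 91 reads a library, and its leading form, the mature 23 nt sequence, stood at 2.10, 5.09, 2.36 and 4.30 CPM. The guide arm outnumbered it 124- and 196-fold at 2 months and 69.3- and 130.2-fold at 18 months. miR-486-5p was at 197 and 192 CPM in the young pair of libraries and 148 and 134 CPM in the old pair, with means of 194 ± 3.40 and 141 ± 10.01 CPM. This was the member whose libraries did not overlap between the ages.

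By mean level mmu-miR-451a ranked 88, mmu-miR-144-3p 110, miR-486-5p 232 and mmu-miR-144-5p 480 among the 1029 names. The 4 members together took 0.200% (95% Wilson interval 0.197 to 0.203%) and 0.357% (0.354 to 0.361%) of the reads at 2 months. At 18 months they took 0.185% (0.183 to 0.188%) and 0.296% (0.293 to 0.300%). These intervals cover counting error only, and replicates of 1 age lay many interval widths apart. The summed level was 2788 ± 1112 CPM at 2 months and 2406 ± 785 CPM at 18 months, a difference of -382 CPM (two-sided exact permutation p = 0.667, where 2 against 2 libraries cannot go below 0.333).

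**Figure D1:**
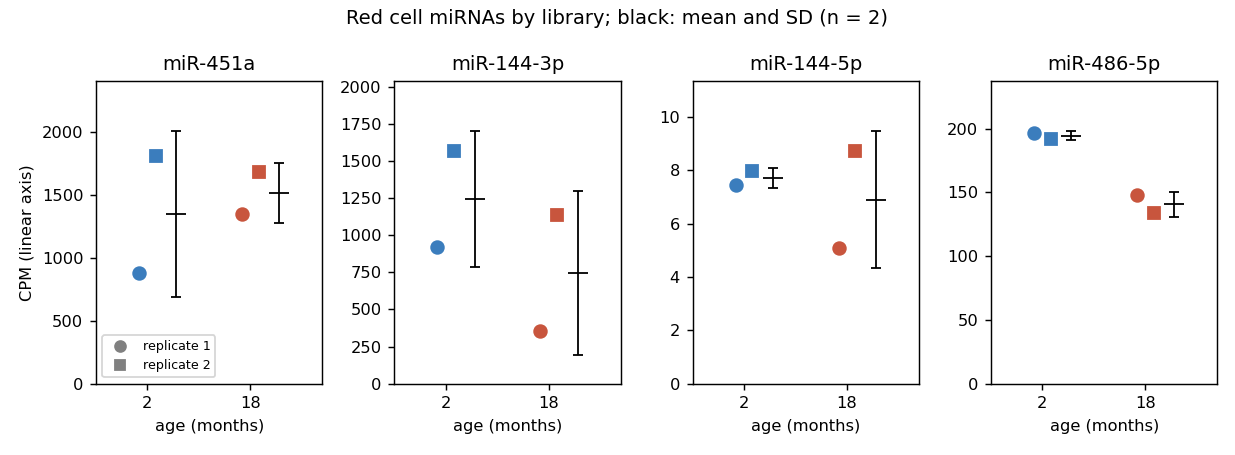
CPM of each red cell miRNA (linear axes from 0) against age in months, 1 point per library (circles replicate 1, squares replicate 2), with the mean and SD of 2 libraries in black. mmu-miR-451a, mmu-miR-144-3p and mmu-miR-144-5p overlap between the ages, and miR-486-5p at 148 and 134 CPM lies below its 2-month values of 197 and 192 CPM.

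The study compared the ages to ask how the small RNAs in the RISC of brain cells change as mice grow old. No member passed the test. In limma on log2(CPM + 1), with a fold change on that scale and an unadjusted p under 0.05 as the study's threshold, 0 of the 3 members that passed the minimum of 10 CPM were called, against a background of 16.2% of all 456 tested miRNAs, or 0.219% after adjustment. edgeR and DESeq2 on the recovered reads also called 0 of 3, against 62 and 69 of all 456 without adjustment. mmu-miR-451a differed by 0.25 on the log2 scale (18 minus 2 months, SE 0.37, 95% interval -0.63 to 1.14, limma adjusted p = 0.735). mmu-miR-144-3p differed by -0.92 (SE 0.56, interval -2.27 to 0.43, limma adjusted p = 0.437). miR-486-5p differed by -0.46 (SE 0.20, interval -0.96 to 0.03, limma adjusted p = 0.327). The intervals of mmu-miR-451a and mmu-miR-144-3p leave room for a change of more than 2-fold. mmu-miR-144-5p did not reach 10 CPM, and its difference without that minimum was -0.18 (limma, unadjusted p = 0.657, not an exact test).

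The median difference of all 456 tested miRNAs was -0.22, and it was -0.02 once the median of ratios replaced the read total as the scale of a library. Relative to the median on CPM, mmu-miR-451a stood 0.48 higher, mmu-miR-144-3p at -0.70 and miR-486-5p at -0.24. The direction of all 3 was the same under both scalings. Both 18-month libraries of miR-486-5p were below both 2-month libraries, which held for 41.4% of all tested miRNAs on CPM and for 19.5% after the median of ratios. Single libraries decided the other values. Without replicate 1 of 2 months mmu-miR-451a differed by -0.27, and without replicate 2 of 2 months by 0.78 (limma, unadjusted p = 0.027, not an exact test). Without replicate 1 of 18 months mmu-miR-144-3p differed by -0.080, and without replicate 2 of 18 months by -1.76 (limma, unadjusted p = 0.007, not an exact test). As nothing says that the libraries came from separate animals, these p-values measure only the spread between libraries, and in tissue fewer blood cells cannot be told apart from less RNA per cell.

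**Figure D2:**
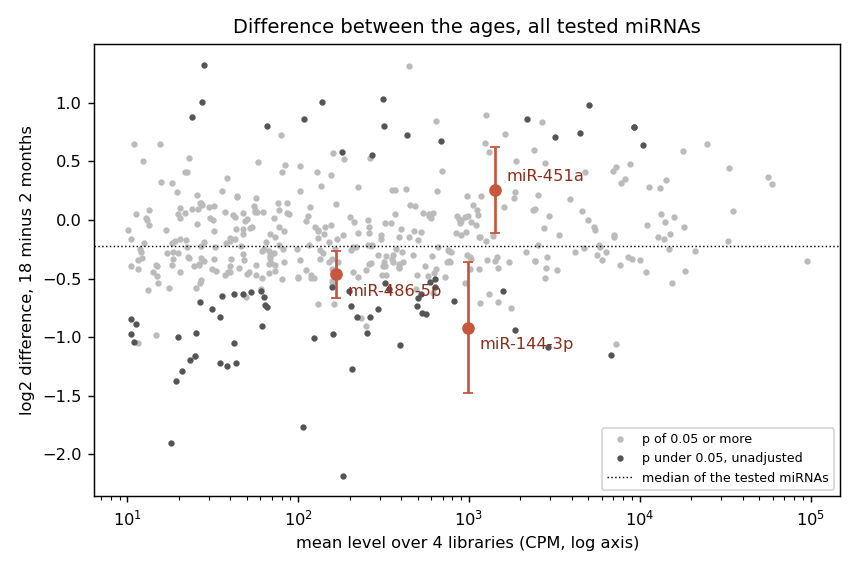
Log2 difference between the ages (18 minus 2 months) against the mean level over 4 libraries (CPM, log axis) for the 456 tested miRNAs, with unadjusted p under 0.05 in dark grey and the 3 tested red cell miRNAs in red with their SE. The dotted line is the median of -0.22, and the SE bars of mmu-miR-144-3p and miR-486-5p lie below 0 while that of mmu-miR-451a spans 0.

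mmu-miR-451a and mmu-miR-144-3p come from 1 transcript, yet their levels did not keep 1 ratio across the libraries. The ratio of mmu-miR-451a to mmu-miR-144-3p was 0.956 and 1.16 in young and 3.80 and 1.48 in old libraries (two-sided exact permutation p = 0.333, the smallest that 2 against 2 can give). Both 18-month ratios were above both 2-month ratios, and how many other pairs of miRNAs split in this way was not counted. Most of the gap came from replicate 1 of 18 months, where mmu-miR-144-3p was low. Without that library the log2 ratio differed by 0.50 between the ages, against 1.18 with it. The ratio of mmu-miR-451a to miR-486-5p was 4.47 and 9.44 in young and 9.10 and 12.6 in old libraries, and here the ages overlapped.

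Most mmu-miR-451a reads started at the mature 5' end and differed in where they stopped. The reference start held 94.5 and 97.5% of the reads in young and 96.9 and 97.1% in old libraries. The 5 most abundant sequences made up 91.7% of the member's mean level. They are shown with bases past the 22 nt mature end in capitals, because these bases match the hairpin printed above:
23 nt: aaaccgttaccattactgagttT
22 nt: aaaccgttaccattactgagtt
21 nt: aaaccgttaccattactgagt
25 nt: aaaccgttaccattactgagttTAG
26 nt: aaaccgttaccattactgagttTAGT
The 23 nt form led, at 366 and 726 CPM in the young pair of libraries and 567 and 859 CPM in the old pair. The 22 nt form followed at 259, 581, 389 and 402 CPM in the same order. The read that ends where the annotation ends was thus not the most abundant one in any library. Reads that matched the hairpin throughout and passed the mature end took 56.4 and 55.2% of mmu-miR-451a reads in young and 58.5 and 66.7% in old libraries.

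Reads of 24 nt or longer took 12.2 and 14.4% of mmu-miR-451a in young and 15.7 and 14.4% in old libraries. The 18-month shares were the higher ones, by 1.75 percentage points on average, and the nearest libraries of the 2 ages differed by less than the replicates of either age. Reads of 21 nt or shorter took 15.2 and 12.04% in young and 11.7 and 8.98% in old libraries, again without overlap. Neither difference could pass the exact permutation test (p = 0.333 for each, the smallest possible). In how many other miRNAs such length shares split by age was not counted. A second peak stood at 25 nt, with 4.95 to 7.10% of reads against 2.15 to 4.61% at 24 nt, equalled by 26 nt in replicate 1 of 2 months. A set of trimmed 5' ends, starting 4 nt inside the mature sequence, took 2.90 and 1.11% in young and 1.04 and 1.24% in old libraries. Reads of the hairpin with no mature name were not counted here. Replicate 1 of 2 months, the library with the fewest mmu-miR-451a reads, had the highest of these shares.

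**Figure D3:**
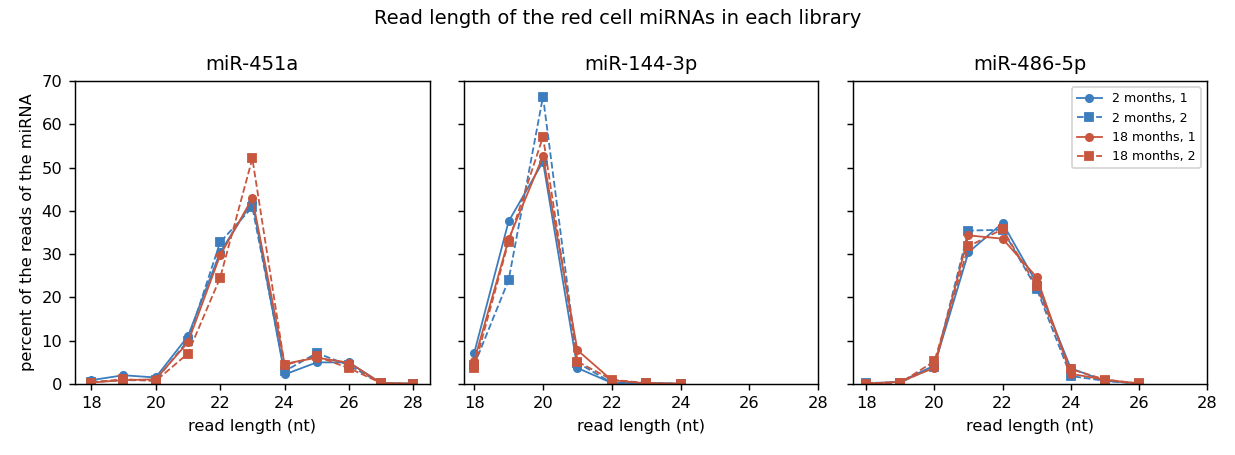
Percent of the reads of each miRNA (linear axis) against read length in nt, 1 line per library (blue 2 months, red 18 months, solid replicate 1, dashed replicate 2). mmu-miR-451a peaks at 23 nt in all 4 libraries with a shoulder at 25 and 26 nt, mmu-miR-144-3p peaks at 20 nt, and miR-486-5p is spread over 21, 22 and 23 nt.

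mmu-miR-144-3p was shorter. Reads of 20 nt, the mature length, took 51.3 and 66.4% in young and 52.6 and 57.1% in old libraries, and reads of 18 or 19 nt took 44.6, 28.3, 38.7 and 36.6% in the same order. Its 5 most abundant sequences made up 97.0% of its mean level. They are shown with a base outside the mature sequence in capitals, because that base moves the seed by 1 position:
20 nt: tacagtatagatgatgtact
19 nt: tacagtatagatgatgtac
18 nt: tacagtatagatgatgta
21 nt with the added C: Ctacagtatagatgatgtact
20 nt with the added C: Ctacagtatagatgatgtac
The 20 nt form stood at 451 and 1016 CPM in the young pair of libraries and 178 and 634 CPM in the old pair, and the 19 nt form at 336, 365, 113 and 363 CPM. Forms that start 1 nt outside the mature sequence took 5.45 and 5.51% of the reads in young and 8.82 and 4.99% in old libraries. The library with the fewest mmu-miR-144-3p reads, replicate 1 of 18 months, again stood apart.

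Letters that the hairpin does not hold were rare at the 3' ends of both miRNAs. Reads whose last 1 to 3 letters departed from the hairpin took 0.597 and 0.825% of mmu-miR-451a in young and 0.922 and 1.10% in old libraries. For mmu-miR-144-3p they took 0.851 and 0.775% in young and 1.60 and 1.93% in old libraries. For both miRNAs the 18-month shares lay above the 2-month shares (exact permutation p = 0.333 for each, the smallest possible). The same order held for 29.8% of the 191 miRNAs of at least 100 CPM that could be placed on 1 hairpin each. Among these 191, the mean share of mmu-miR-451a ranked 1 and that of mmu-miR-144-3p ranked 6 from the lowest, and the median miRNA had 9.60% at 2 months and 10.1% at 18 months. An added letter that equals the next letter of the hairpin counted as matching, so such letters are missed. Past the mature end that next letter is U for mmu-miR-451a and A for mmu-miR-144-3p. What part this had in the ranks was not tested.

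miR-486-5p had no leading length. Reads of 21 nt took 30.4 and 35.4% in young and 34.3 and 31.8% in old libraries, and reads of 22 nt took 37.1, 35.6, 33.5 and 35.8%. Its 5 most abundant sequences made up 89.8% of its mean level, and 4 of them are shown beside the 22 nt form printed earlier, with positions 2 to 8 in capitals, to show that they differ at the 3' end alone:
21 nt: tCCTGTACtgagctgccccga
23 nt ending in T: tCCTGTACtgagctgccccgagt
23 nt ending in A: tCCTGTACtgagctgccccgaga
20 nt: tCCTGTACtgagctgccccg
The 23 nt form ending in T took 15.3 and 14.9% in young and 14.7 and 16.02% in old libraries. Since no hairpin of miR-486 was given, whether its last letter is encoded was not tested. The 22 nt form stood at 67.3 and 62.6 CPM in the young pair of libraries and 45.7 and 41.2 CPM in the old pair, and the 21 nt form at 57.9, 65.7, 47.8 and 40.9 CPM. Neither leading form passed (limma adjusted p = 0.553 and 0.631).

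Of the other arms of these hairpins 1 reached 10 CPM, and it did not pass in limma, edgeR or DESeq2. mmu-miR-486a-3p, the opposite arm, was at 42.5 and 39.1 CPM in the young pair of libraries and 51.3 and 42.8 CPM in the old pair (log2 difference 0.20, SE 0.24, limma adjusted p = 0.672). It made up 17.8 and 16.9% of the reads of both arms in young and 25.8 and 24.3% in old libraries, without overlap (exact permutation p = 0.333, the smallest possible). How many other hairpins split by age in this way was not counted. On CPM, the libraries of the ages did not overlap, in either direction, for 53.5% of the 456 tested miRNAs. mmu-miR-486b-3p was at 0.263 to 3.75 CPM, and mmu-miR-451b had no sequence in the table. The table lists no sequence with fewer than 4 reads over the 4 libraries.

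In the study's screen each 6mer seed (positions 2 to 7) has a viability score, the percent of cells left when an siRNA carries that seed, averaged over 3 mouse cell lines. The seed of mmu-miR-144-3p, ACAGUA, had a high score of 86.2%. CCUGUA of miR-486-5p had 67.1% and AACCGU of mmu-miR-451a 58.3%, near the read-weighted mean of all sequences, which was 57.7 to 58.4%. GAUAUC of mmu-miR-144-5p had 36.6%. The main seed was carried by 94.6 to 97.6% of mmu-miR-451a reads, 90.2 to 94.6% of mmu-miR-144-3p reads and 97.4 to 98.4% of miR-486-5p reads. Of the few mmu-miR-144-5p reads 66.7 to 84.8% carried GAUAUC. The read-weighted score of mmu-miR-144-5p was 48.8 and 41.3% in young and 45.5 and 40.2% in old libraries. The trimmed mmu-miR-451a form that starts 4 nt inside carries GUUACC, with a score of 18.6%. It is shown with that seed in capitals, because it is the form of a member with the lowest score among those of at least 10 CPM:
mmu-miR-451a, 19 nt: cGTTACCattactgagttt
This form stood at 14.02 and 9.48 CPM in the young pair of libraries and 6.90 and 13.7 CPM in the old pair, and the ages overlapped. The read-weighted score of mmu-miR-451a was 57.4, 57.9, 58.0 and 57.9% in the 4 libraries, and that of mmu-miR-144-3p 84.7, 84.7, 83.8 and 84.9%.

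mmu-miR-451a and miR-486-5p had their 6mer seeds almost to themselves, with 97.7 to 98.4% of the CPM on AACCGU and 98.5 to 99.7% of the CPM on CCUGUA. mmu-miR-144-3p did not. ACAGUA is also found in mmu-miR-101a-3p and mmu-miR-101b-3p, which many cell types hold. Here mmu-miR-101a-3p differs from mmu-miR-144-3p after the 6mer seed:
mmu-miR-101a-3p: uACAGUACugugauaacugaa
mmu-miR-144-3p gave 13.2 and 18.3% of the CPM on this seed in young and 3.41 and 8.79% in old libraries. mmu-miR-101a-3p gave 64.2 and 58.2% in young and 72.6 and 69.9% in old libraries. All carriers of the seed summed to 6547, 8050, 9352 and 12213 CPM in the 4 libraries, and no test was run on that sum.

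**Figure D4:**
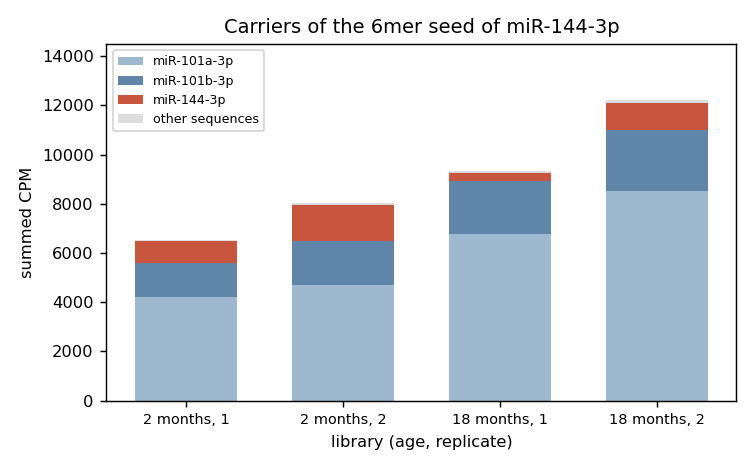
Summed CPM (linear axis from 0) of all sequences with the 6mer seed ACAGUA in each library, stacked by carrier. mmu-miR-144-3p (red) gives 13.2 and 18.3% of the column at 2 months and 3.41 and 8.79% at 18 months, and mmu-miR-101a-3p is the main carrier in each library.

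At the level of single sequences 44 of the 209 member sequences reached 1 CPM on average and were tested with all 14287 such sequences. At 18 months 4 were lower at an unadjusted p under 0.05, against a background of 4.23% of tested sequences, and 1 was higher, against 5.87%. None passed after adjustment in limma, edgeR or DESeq2. Without adjustment edgeR called 4 lower and 0 higher, against 541 and 819 of all 14287 sequences. DESeq2 called 2 lower and 0 higher, against 349 and 592 of the same sequences. The 18 nt form of mmu-miR-144-3p stood at 64.5 and 66.3 CPM in the young pair of libraries and 18.5 and 42.1 CPM in the old pair (log2 difference -1.19, limma adjusted p = 0.380). The 20 nt form with the added C stood at 19.1 and 18.2 CPM in the young pair of libraries and 6.71 and 12.02 CPM in the old pair (-0.97, limma adjusted p = 0.425). Replicate 1 of 18 months was the lowest library for both. The 24 nt form of mmu-miR-451a stood at 16.1 and 46.8 CPM in the young pair of libraries and 54.6 and 66.7 CPM in the old pair (1.10, limma adjusted p = 0.467). It is shown with the bases past the mature end in capitals, because it was the single form that was higher:
mmu-miR-451a, 24 nt: aaaccgttaccattactgagttTA
Each of the 5 calls was lost when replicate 1 of 18 months was left out. The 18 nt form of mmu-miR-144-3p then differed by -0.62 and the 20 nt form with the added C by -0.59. The other 3 differences stayed near their size. That of the 24 nt form of mmu-miR-451a was 1.24, and those of the other 2 lower forms, both under 10 CPM, were -0.86 (a 19 nt form of mmu-miR-144-3p, against -0.91) and -0.84 (a 19 nt form of mmu-miR-451a, against -0.89). Without replicate 1 of 2 months the 24 nt form differed by 0.36.

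Other miRNAs that blood, vessels and muscle bring into a brain sample were read from lists of names. Of 17 tested miRNAs abundant in red cells but also held by most other cells, 0 were higher, against a background of 4.17% of all tested miRNAs, and 1 was lower, against 12.1%, with a median difference of -0.05 against -0.22 over all tested miRNAs. The lower one, mmu-miR-19b-3p of the cluster of mmu-miR-17, stood at 721 and 785 CPM in the young pair of libraries and 471 and 540.1 CPM in the old pair (-0.58, SE 0.21, limma adjusted p = 0.266). The leaders of the list were mmu-miR-22-3p at 10808 to 20334 CPM and mmu-miR-16-5p at 14524 to 17480 CPM. The whole list summed to 53861 to 55794 CPM at 2 months and 47088 to 50443 CPM at 18 months, which is over 10 times the members' own sum.

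White cell miRNAs summed to less than that list and to more than the 4 members. Most of that sum was mmu-miR-150-5p, so its place above the members rests on a miRNA that brain cells also hold. Whether the other miRNAs of the list came from blood or from cells of the brain was not tested. None of 5 tested passed in limma, edgeR or DESeq2, with or without adjustment. mmu-miR-142a-3p, found across white blood cells, was at 259 and 462 CPM in the young pair of libraries and 239 and 291 CPM in the old pair. mmu-miR-223-3p, a neutrophil miRNA, was at 49.7 and 63.0 CPM and at 54.8 and 63.0 CPM. mmu-miR-150-5p, a lymphocyte miRNA that brain cells also hold, was at 2654 and 2832 CPM and at 2344 and 2370 CPM. mmu-miR-142a-5p was at 176 and 208 CPM and at 129 and 173 CPM. mmu-miR-146a-5p lay the other way, at 179 and 221 CPM and at 280 and 210 CPM (log2 difference 0.28). So did mmu-miR-155-5p, at 3.34 and 3.25 CPM and at 3.88 and 4.96 CPM, which was too low to be tested. The list summed to 3322 and 3790 CPM in the young pair of libraries and 3051 and 3112 CPM in the old pair.

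Of the 4 vessel wall miRNAs, 1 was lower at 18 months, against the same background of 12.1%. mmu-miR-126a-3p, the endothelial miRNA, stood at 9242 and 8854 CPM in the young pair of libraries and 2557 and 6489 CPM in the old pair (-1.15, SE 0.43, limma adjusted p = 0.266). Its lowest library was replicate 1 of 18 months, the same library in which mmu-miR-144-3p was lowest. Without that library it differed by -0.48, and without replicate 2 of 18 months by -1.82. The opposite arm mmu-miR-126a-5p, at 2501 to 3000.3 CPM, did not follow it there and stood at 2865 CPM in that library. Its call was lost in edgeR (-0.79), in DESeq2 (-0.80), after the median of ratios (-0.94) and without any 1 library other than replicate 2 of 18 months. That of mmu-miR-19b-3p was lost in the same tools and scaling, with differences of -0.35, -0.37 and -0.37, and without any 1 library other than replicate 1 of 2 months. The vessel list summed to 18658 and 18031 CPM in the young pair of libraries and 10455 and 13905 CPM in the old pair. What part vessel content had in the levels of the red cell miRNAs was not tested.

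Muscle also holds miR-486-5p. Of 3 tested muscle markers 1 was higher at 18 months, against a background of 4.17% of all tested miRNAs. This was mmu-miR-133a-3p, at 104 and 55.0 CPM in the young pair of libraries and 129 and 147 CPM in the old pair (0.86, SE 0.33, limma adjusted p = 0.269). Of all tested miRNAs, 19 were called higher in limma on CPM without adjustment. The alternatives called more of them higher, with 39 in edgeR, 43 in DESeq2 and 40 after the median of ratios. For mmu-miR-133a-3p in edgeR (1.03), in DESeq2 (1.01) and after the median of ratios (1.06) the call held without adjustment and not with it. The call was lost without any 1 library other than replicate 1 of 2 months, and without replicate 2 of 2 months it differed by 0.40. mmu-miR-1a-3p lay the other way, at 89.8 and 95.4 CPM in young and 62.2 and 83.3 CPM in old libraries (-0.36, limma adjusted p = 0.450). So did mmu-miR-206-3p, at 5.53, 5.01, 3.31 and 3.75 CPM, which was too low to be tested. mmu-miR-499-5p was at 24.3 to 30.5 CPM and mmu-miR-208a-3p at 0.095 to 0.878 CPM. The liver marker mmu-miR-122-5p was at 5.01 to 7.11 CPM, and mmu-miR-204-5p, which marks choroid plexus, at 2100 to 2786 CPM. The tissue itself was read from its own markers. mmu-miR-124-3p of neurons stood at 69405 to 107034 CPM, and mmu-miR-219a-5p and mmu-miR-338-3p of oligodendrocytes at 1396 to 6423 CPM and 3232 to 5679 CPM. None of the 6 brain miRNAs passed in limma, edgeR or DESeq2, with or without adjustment. mmu-miR-219a-5p was lowest in replicate 1 of 2 months, the library in which mmu-miR-451a was lowest too. The other oligodendrocyte marker, mmu-miR-338-3p, was highest in that library, at 5679 CPM.

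Messenger RNA of red cells was looked up in the same table. Among 14499 sequences named by an mRNA, 97.6% could be given a gene symbol through the transcript identifier. Of 9 red cell genes looked up, which were the globins Hba-a1, Hba-a2, Hbb-bs, Hbb-bt, Hbb-b1 and Hbb-b2, the haem synthesis enzyme Alas2, and the membrane proteins Slc4a1 and Ank1, 1 had a sequence. This was Hba-a2, with 4 reads in replicate 2 of 18 months, or 0.441 CPM.

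**Figure D5:**
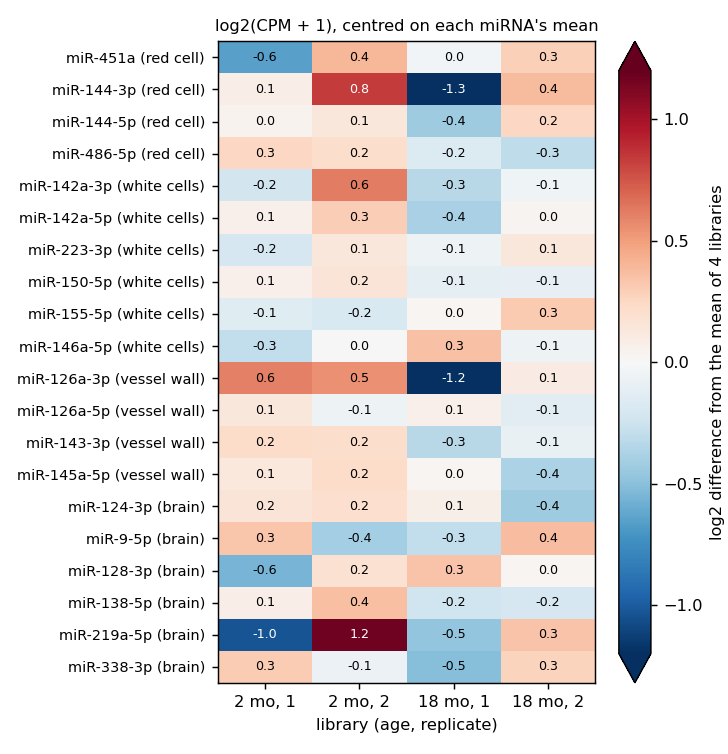
log2(CPM + 1) of the red cell, white cell, vessel wall and brain miRNAs, centred on each miRNA's mean over the 4 libraries (columns), with the difference printed in each cell and colours clipped at the ends of the scale. mmu-miR-144-3p and mmu-miR-126a-3p share their lowest library, replicate 1 of 18 months, whereas mmu-miR-451a is lowest in replicate 1 of 2 months and miR-486-5p splits by age.

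Likeness of profiles was measured as the root mean square difference of centred log2(CPM + 1) over 4 libraries, among 272 other miRNAs of at least 100 CPM. Nearest to mmu-miR-451a were mmu-miR-770-5p (0.087), mmu-miR-200a-3p (0.201), mmu-miR-129-1-3p (0.221), mmu-miR-708-5p (0.224) and mmu-let-7i-3p (0.226). miR-486-5p ranked 182 (0.550) and mmu-miR-144-3p ranked 255 (0.763) in that order. Nearest to miR-486-5p were mmu-miR-132-5p (0.036), mmu-miR-328-3p (0.045), mmu-miR-935 (0.046), mmu-miR-323-3p (0.065) and mmu-miR-540-3p (0.071), with mmu-miR-451a at 233 and mmu-miR-144-3p at 257. For mmu-miR-144-3p, looked up after its values were seen, the nearest were mmu-miR-337-3p (0.078), mmu-miR-873a-5p (0.323), mmu-miR-126a-3p (0.337), mmu-miR-32-5p (0.339) and mmu-miR-130a-3p (0.389), with miR-486-5p at 102 and mmu-miR-451a at 121. With 4 libraries such likeness is a description of these libraries alone.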

How the data were processed

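R-sRNAs of 4 libraries were analysed (2 per age, grouped by the age in the labels). The authors trimmed the reads (Trim Galore in the submitters' processing notes, version not given in the sources used here), removed rare reads, named sequences by BLAST and deposited CPM, counts scaled to the same total in each library. The viability score per 6mer seed was added by the authors. Whole reads were recovered from the deposited CPM for 100% of nonzero values. No per-sample column was left unassigned.

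CPM were summed by miRNA name and tested in limma 3.58.1 (R 4.3.3) with intensity trend on log2(CPM + 1), for 456 miRNAs of at least 10 CPM and 14287 sequences of at least 1 CPM on average, two-sided, with Benjamini-Hochberg adjustment. edgeR 4.0.16 and DESeq2 1.42.0 on the recovered reads were alternatives. Shares and sums were compared by the exact permutation test over libraries. Reads were placed on RefSeq hairpins (GRCm38.p6) by the longest exact match from the first letter of the read, of at least 14 letters. Tested on simulated data with 200 miRNAs changed 4-fold, the limma step recovered 100% and called 3.13% of unchanged miRNAs, and for sequences it recovered 88.5%. Smaller changes, such as those of the members, were not simulated. Named were all members with their 5 leading sequences (for mmu-miR-144-5p, the leading one), any member sequence with p under 0.05 and at least 10 CPM, the called miRNAs of each list or else its 2 leaders (lists of up to 6 could be given whole), and the 5 nearest profiles of mmu-miR-451a and miR-486-5p. The members and lists were chosen with earlier results of these data known. One further gene of the red cell mRNA list is not reported here.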

Additional observations from a re-analysis of the deposited data

Results flagged for a closer look

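Sequences of the same hairpins that carry no mature name were left out of the comparisons and held signal in every library. The hairpin of miR-451 gave 83 such sequences, at a mean of 37.9 CPM over the 4 libraries (32.4 and 45.8 CPM at 2 months, 32.1 and 41.4 CPM at 18 months). The leading one, shown because its shifted start gives it another seed than the mature sequence, was 18 nt long:
miR-451 hairpin, 18 nt: gttaccattactgagttt
It stood at 9.25 and 8.96 CPM at 2 months and at 4.16 and 9.60 CPM at 18 months, and its 6mer seed UUACCA had a viability score of 85.6%. The hairpin of miR-144 gave 37 such sequences at a mean of 13.01 CPM (12.2 and 19.1 CPM at 2 months, 5.77 and 15.0 CPM at 18 months), and that of miR-486 gave 9 at a mean of 1.03 CPM. No group had the 4 libraries that a check for a single outlying library needs.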

How the results depend on the processing

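Of 120 values recomputed under an alternative, 104 kept their direction and their side of the threshold, or stayed within the spread or within 1.5 times the count. The 74 miRNAs called (19 higher, 55 lower) became 125 without the minimum level, 43 with the stricter one and 1 after adjustment, and edgeR gave 39 higher and 23 lower, DESeq2 43 and 26, and the median of ratios 40 and 24. The 1443 sequences called became 3327, 424 and 6 in the same order, and 941 in DESeq2. The minimum level sets how many items were tested; for edgeR, DESeq2 and the scaling the cause was not tested. The replicate number as a block made 79 miRNAs and 1530 sequences called and left mmu-miR-144-3p at -0.92 with an unadjusted limma p of 0.049 (no exact test); same-numbered libraries share only a number (correlation of their deviations 0.180). The 2 calls in the blood and vessel lists became 0 in edgeR, DESeq2 and the median of ratios. The difference of 2.80 percentage points in mmu-miR-144-3p reads of 21 nt or longer fell to 1.14 with the reference start alone. Leaving out 1 library gave 55 to 74 miRNAs and 1065 to 1411 sequences called, 0 to 2 calls in the lists, and log2 differences of -0.27 to 0.78 for mmu-miR-451a, -1.76 to -0.080 for mmu-miR-144-3p, -0.54 to -0.39 for miR-486-5p and -0.59 to 0.27 for the sum of the members. It gave 0.64 to 2.86 points for mmu-miR-451a reads of 24 nt or longer, 1.42 to 10.6 for 23 nt, 1.57 to 4.04 for the mmu-miR-144-3p reads, -0.13 to 1.98 for miR-486-5p reads of 23 nt, and 0.50 to 1.85 for the log2 ratio of mmu-miR-451a to mmu-miR-144-3p. With 2 libraries an age, depth was not the limit for the 3 abundant members, and 54 to 91 reads limit mmu-miR-144-5p.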
